A study of Homo sapiens with 7 samples.

Results

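The genes described here are 10 members of the glucose uptake and glycolysis pathway: the glucose transporters SLC2A1 and SLC2A3, the hexokinases HK1 and HK2, the phosphofructokinase PFKP, its activator-producing enzyme PFKFB3, and the later enzymes ALDOA, ENO1, PKM and LDHA. They were chosen by name from 20033 protein-coding genes. For each gene, the H3K4me1 intervals that overlapped its GENCODE release 44 gene body or the 50 kb on either side were counted (hg38). Each interval is a region that the deposited peak list calls enriched relative to input DNA. The 10 windows held 111 of the 64843 H3K4me1 intervals of the control list and 160 of the 92135 intervals of the KMT2D knockdown list.

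The cells were SW1990, an established human pancreatic cancer line. By the labels, both groups were treated with shRNA, a negative control in NC and a knockdown of KMT2D in KMT2D-KD; whether the lines were stable or clonal is not given for these libraries. Chromatin from each was immunoprecipitated for KMT2D, EBF2 and H3K4me1, which with 1 input library made 7 samples. There was 1 H3K4me1 library per condition, so no difference below has a replicate check, no test was made, and a clone or culture effect cannot be told apart from the knockdown. The labels do not say whether the input came from NC or KMT2D-KD cells, and KMT2D protein or RNA in the knockdown was not analysed here.

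Glycolysis begins when glucose enters the cell through facilitative transporters and is trapped as glucose 6-phosphate by hexokinase. Phosphofructokinase then commits the sugar to the pathway, aldolase splits it, and enolase and pyruvate kinase complete the steps to pyruvate, which lactate dehydrogenase A converts to lactate. Tumour cells, those of the pancreas among them, are known for high glucose uptake and lactate production, and HIF-1 and MYC are known activators of many of these genes. H3K4me1 is monomethylation of lysine 4 on histone H3, a mark of enhancers and of the flanks of active promoters, and KMT2D (MLL4) is among the enzymes that place it. The comparison of NC with KMT2D-KD asks how this mark differed in the cells labelled as KMT2D knockdown.

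Around these genes the H3K4me1 list of KMT2D-KD was larger than that of NC. The bases covered were higher in KMT2D-KD at 10 of 10 genes, and the number of intervals was higher at 9 of 10, with PKM at 6 in both. Among all 12726 protein-coding genes with at least 5 intervals in both lists together, 91.4% had more covered bases in KMT2D-KD and 82.7% had more intervals, so these directions were those of most genes. In total, 51594 bases were covered in NC and 101359 in KMT2D-KD, a 1.96-fold difference. Over the complete lists the covered bases differed 1.54-fold. The number of intervals differed by a log2 ratio of 0.53 (95% counting interval 0.17 to 0.89), beside 0.51 (0.49 to 0.52) over the complete lists. The log2 ratio of covered bases was 0.97, beside 0.62 over the complete lists. With the width of the counting interval of the number, its interval was 0.61 to 1.33 and just included that value. The difference in number was thus within counting error of that over the complete lists. For covered bases no such statement can be made, because the borrowed interval leaves out the spread of interval widths. The covered length differed more than the number.

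Covered bases were at least 2-fold higher in KMT2D-KD at 6 of 10 genes (SLC2A3, HK1, PFKP, PKM, LDHA and ALDOA), beside 41.1% of all genes. No member was at least 2-fold lower, beside 0.959% of all genes. The number of intervals was at least 2-fold higher at PFKP and ALDOA, 2 of 10, beside 36.2% of all genes, and at least 2-fold lower at none, beside 1.28%. The median log2 ratio of covered bases was 1.06 over the 10 genes and 0.83 over all genes, and that of the number was 0.55 and 0.65. The KMT2D-KD library was the shallower of the pair, with a recovered depth of 9.29 fragments per 1000 bases against 9.89 in NC, and the median interval of both lists rested on 12 fragments at its summit. When equal numbers of the strongest intervals were taken from both lists, 3 members passed 2-fold beside 24.7% of all genes, and the log2 ratio of the number was 0.03.

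**Figure D1:**
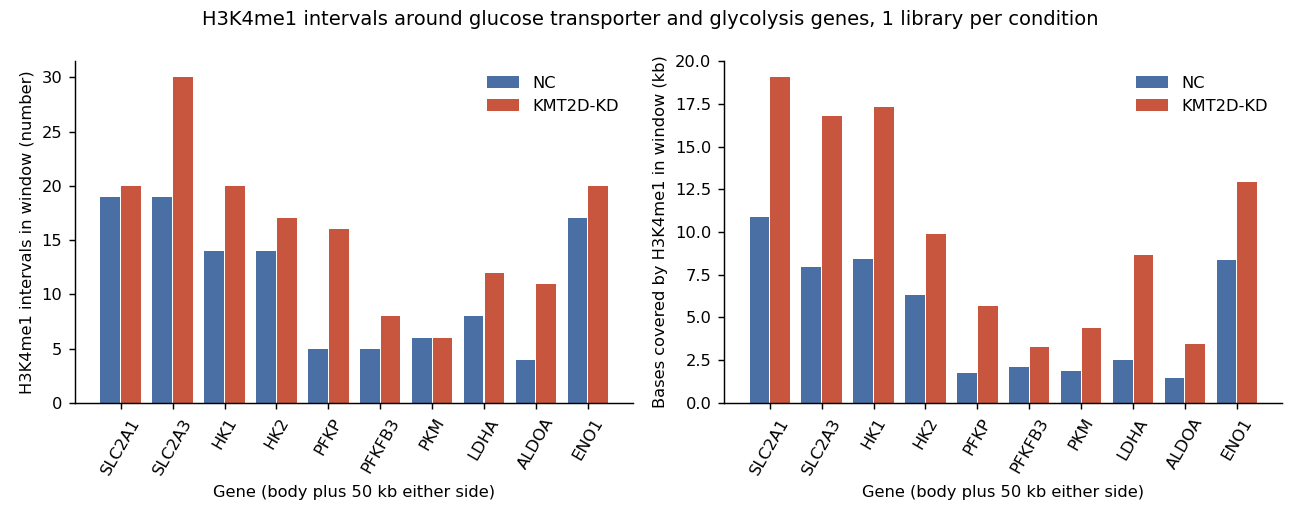
Number of H3K4me1 intervals (left) and kilobases covered by them (right) in the window of each gene, with NC in blue and KMT2D-KD in red; each bar is 1 library, so there are no error bars. The number ran from 4 at ALDOA to 19 at SLC2A1 and SLC2A3 in NC and from 6 at PKM to 30 at SLC2A3 in KMT2D-KD, and every red bar on the right exceeds its blue neighbour.

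Base composition moved with the covered bases and is given here for that reason. Over all genes tested, the median log2 ratio of covered bases was 0.48 in the GC quintile of genes with the lowest GC content of the window, then 0.65, 0.75 and 0.93, and 1.30 in the quintile with the highest. The windows of the 10 genes had a GC content of 43.2% to 53.1%. Of the 10 genes, 5 lay above the median of their own quintile, and the median difference from it was 0.02. LDHA lay 1.13 above on the log2 scale, PFKP 0.74, PKM 0.47, SLC2A3 0.33 and HK1 0.11. The other members lay between −0.30 and −0.07 from the median of their quintile. The part of base composition in the differences between the lists was not tested.

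**Figure D2:**
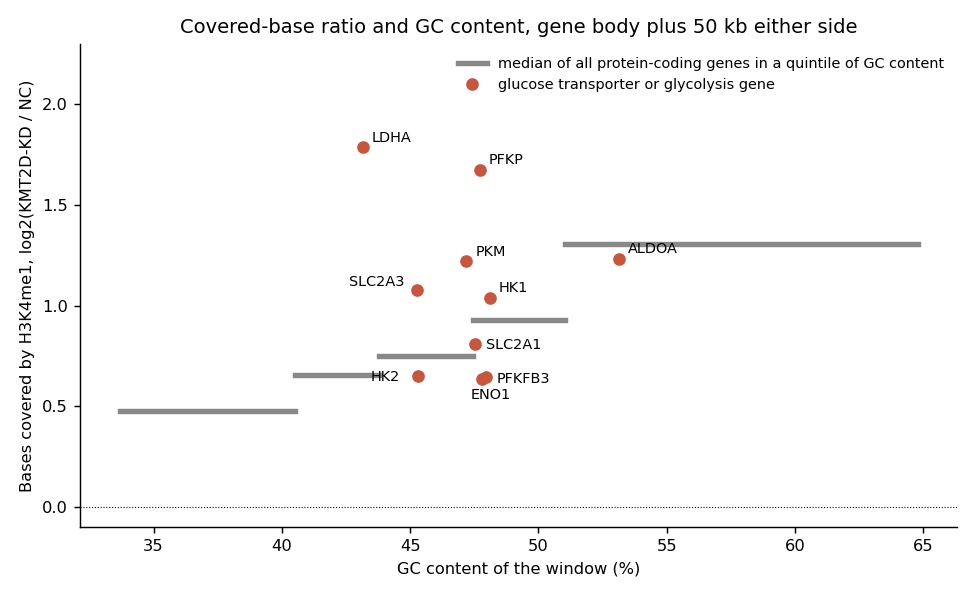
The log2 ratio of covered bases (KMT2D-KD over NC) plotted against the GC content of the window for the 10 genes (red points), with grey bars for the median of all protein-coding genes in each quintile of GC content. The grey bars climb from 0.48 to 1.30, and LDHA and PFKP stand farthest above the bar of their own quintile.

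The intervals near these genes were also wider in KMT2D-KD. Median widths were 372 (NC) and 407 bases (KMT2D-KD), and the mean was 465 and 634 bases, against means of 498 and 540 over the complete lists. Intervals of at least 1000 bases made up 7 of 111 in NC (6.31%, exact binomial interval 2.57% to 12.6%) and 27 of 160 in KMT2D-KD (16.9%, 11.4% to 23.6%). Over the complete lists they made up 8.50% and 11.4%. Of the KMT2D-KD intervals near the 10 genes, 68 overlapped an NC interval. At these places the KMT2D-KD interval was the wider at 52 of 68 (76.5%, beside 61.2% over the complete lists), with a median width ratio of 1.64 (beside 1.18). The summit enrichment was higher in KMT2D-KD at 43 of 68 (63.2%, beside 63.3%), with a median log2 ratio of 0.16 (beside 0.13). The height at shared places thus differed as over the complete lists, while the width by this pairing differed by more. Each KMT2D-KD interval was set against only the NC interval of highest −log10 q that it overlapped. A KMT2D-KD interval over several NC intervals therefore counts as wider than the summed pieces would make it. Of the 68, 10 lay over at least 2 NC intervals, beside 4574 of 42922 over the complete lists.

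Intervals that overlapped none of the other list are called unshared. They were 31 of 111 in NC (27.9%, 19.8% to 37.2%), beside 30.3% of the complete list, and 92 of 160 in KMT2D-KD (57.5%, 49.4% to 65.3%), beside 53.4%. Unshared intervals were narrow, with a median of 287 bases in NC and 292 in KMT2D-KD, whereas shared intervals had medians of 418.5 and 834 bases. They were also weaker, with a median −log10 q of 3.49 in NC and 3.32 in KMT2D-KD against 4.16 and 6.22 for shared intervals. Both directions were those of the complete lists. There, unshared intervals had median widths of 279 and 292 bases and shared ones 444 and 580. The median −log10 q was 2.85 and 3.32 against 4.16 and 5.30. Of the bases covered in KMT2D-KD alone, 35073 were in unshared intervals and 31820 were extensions of shared intervals (47.6%, beside 40.5% over the complete list). The surplus of KMT2D-KD was spread over all 3 zones, with a log2 ratio of summed widths of 0.98 upstream, 1.01 in gene bodies and 0.88 downstream. These zones follow the gene record, which at SLC2A3, HK1 and PFKFB3 begins far from the start of the representative transcript.

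**Figure D3:**
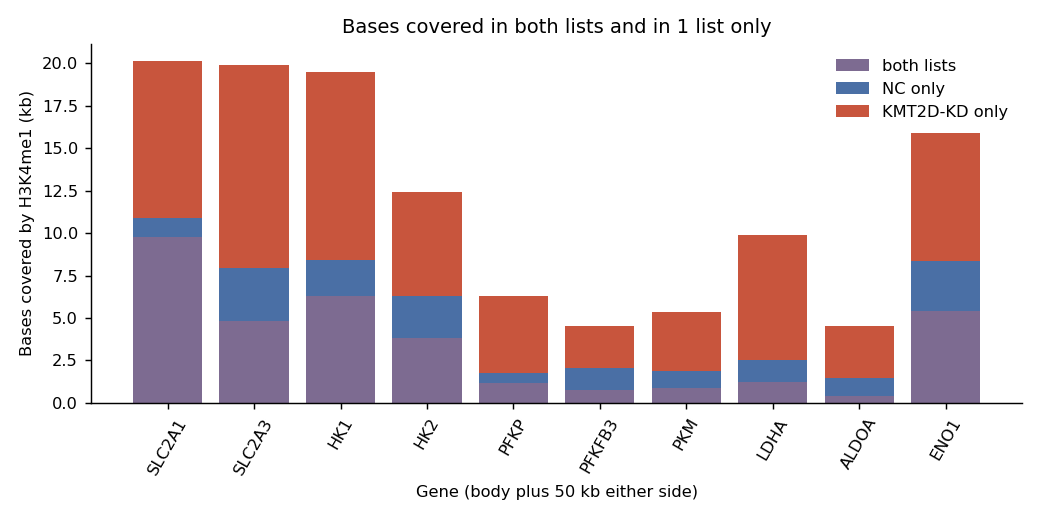
Kilobases covered in both H3K4me1 lists (purple), in NC alone (blue) and in KMT2D-KD alone (red) in the window of each gene. At SLC2A1 9782 bases were covered in both lists, whereas at ALDOA only 380 were, and the red part exceeds the blue part at every gene.

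The sequences under the strongest intervals are shown to give the places that dominate the values below. Each is the hg38 reference, plus strand, over 100 bases on either side of the summit. The first pair is the strongest interval of each list over all 10 genes, both in SLC2A1. The second pair is the strongest unshared interval of each list that does not lie in an untranslated region, for NC in an intron of PFKFB3 and for KMT2D-KD in HKDC1, a neighbour within the HK1 window. The last pair holds the LDHA intervals found in KMT2D-KD alone, chosen after their values were seen. Capitals mark ACGTG on either strand, the core of the HIF response element.
SLC2A1 NC, chr1:42937526-42937726: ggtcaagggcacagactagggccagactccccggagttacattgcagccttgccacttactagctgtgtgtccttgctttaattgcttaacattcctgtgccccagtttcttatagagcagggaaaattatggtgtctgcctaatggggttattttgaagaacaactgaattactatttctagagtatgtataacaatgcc
SLC2A1 KMT2D-KD, chr1:42941416-42941616: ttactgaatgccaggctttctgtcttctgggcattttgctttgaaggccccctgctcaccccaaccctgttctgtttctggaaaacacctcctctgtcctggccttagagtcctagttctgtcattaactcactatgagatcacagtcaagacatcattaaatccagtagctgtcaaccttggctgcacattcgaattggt
PFKFB3 NC unshared, chr10:6204896-6205096: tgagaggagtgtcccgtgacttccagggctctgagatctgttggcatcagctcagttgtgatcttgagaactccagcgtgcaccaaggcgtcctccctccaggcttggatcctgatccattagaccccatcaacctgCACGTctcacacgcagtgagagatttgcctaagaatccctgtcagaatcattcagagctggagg
HKDC1 KMT2D-KD unshared, chr10:69232554-69232754: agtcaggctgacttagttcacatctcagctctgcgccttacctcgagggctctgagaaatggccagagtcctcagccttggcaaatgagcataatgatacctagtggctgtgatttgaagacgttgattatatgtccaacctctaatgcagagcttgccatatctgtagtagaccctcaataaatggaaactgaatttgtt
LDHA KMT2D-KD unshared in the gene, chr11:18397350-18397550: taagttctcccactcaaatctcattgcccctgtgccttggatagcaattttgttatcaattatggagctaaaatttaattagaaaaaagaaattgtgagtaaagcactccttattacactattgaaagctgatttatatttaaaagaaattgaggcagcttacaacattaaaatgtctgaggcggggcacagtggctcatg
LDHA KMT2D-KD unshared upstream, chr11:18383038-18383238: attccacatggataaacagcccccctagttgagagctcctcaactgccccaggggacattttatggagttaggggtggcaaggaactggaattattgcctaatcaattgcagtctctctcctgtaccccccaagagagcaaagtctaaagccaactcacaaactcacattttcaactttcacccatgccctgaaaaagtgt

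SLC2A1 encodes GLUT1, the widely expressed basal glucose transporter, and lies at chr1:42925353-42958893 (minus strand). Its window was among the most densely marked, with 14.2 intervals per 100 kb in NC, above 98.1% of all protein-coding genes. It held 19 NC and 20 KMT2D-KD intervals, which covered 10860 and 19050 bases (1.75-fold). Only 1 NC interval was unshared, against 8 in KMT2D-KD, and 90.1% of the bases covered in NC were covered in KMT2D-KD as well. The unshared intervals were weak, the strongest reaching 3.51-fold in NC (chr1:42954605-42954847) and 4.75-fold in KMT2D-KD (chr1:42953031-42953367).

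The strongest and widest interval of the 10 windows lay in the SLC2A1 gene body. In KMT2D-KD it ran unbroken over 6400 bases (chr1:42936878-42943277), with 10.6-fold enrichment, −log10 q 23.2 and 34 fragments at the summit. In NC the same stretch was reported as 6 intervals of 207 to 1173 bases. The strongest of these (chr1:42936855-42937798) reached 9.43-fold enrichment, −log10 q 16.9 and 27 fragments, above 99.8% of the NC list in −log10 q. The stretch was thus marked in both conditions, in separate pieces in NC and as a single interval in KMT2D-KD. The 2 summits were apart, at chr1:42937626 in NC and chr1:42941516 in KMT2D-KD. The NC interval under the KMT2D-KD summit (chr1:42941364-42941820) had 3.67-fold enrichment, −log10 q 3.39 and 14 fragments. The log2 ratio of covered bases at SLC2A1 was 0.81, and 0.64 when intervals within 1000 bases of each other were merged in both lists. It was 0.22 without intervals of at least 2000 bases, which removes the wide KMT2D-KD interval but not the 6 NC intervals under it.

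SLC2A3 encodes GLUT3, a transporter of high glucose affinity best known from neurons, and lies at chr12:7919230-8019007 (minus strand). Its window held the most intervals in KMT2D-KD, 30 against 19 in NC, and the covered bases were 7942 (NC) and 16781 (KMT2D-KD), 2.11-fold. Of these intervals, 5 were unshared in NC and 18 in KMT2D-KD. The strongest KMT2D-KD interval (chr12:7993929-7995297, 8.72-fold, −log10 q 14.1) lay in the gene body over 2 NC intervals. The strongest NC interval (chr12:7910413-7910836, 6.32-fold, −log10 q 7.92) lay downstream. The strongest unshared KMT2D-KD interval (chr12:7973523-7973912) reached 5.69-fold (−log10 q 6.59) in the gene body, and that of NC (chr12:7960023-7960273) 4.56-fold (4.16). Gene body here means the whole gene record. The representative transcript of the annotation (MANE Select) starts at chr12:7936187, so these gene-body intervals all lie upstream of that start. SLC2A14, a near-identical copy of SLC2A3, lies in the same window, and how reads that match both were handled is not given in the sources used here, so the values of this window are uncertain. The window also holds FOXJ2 and C3AR1.

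HK1, the hexokinase of most tissues, lies at chr10:69269984-69401884 (plus strand), and HKDC1, TACR2 and TSPAN15 reach into its window. It held 14 NC and 20 KMT2D-KD intervals, of which 5 and 13 were unshared, and they covered 8429 and 17309 bases (2.05-fold). The strongest interval of each list lay past the 3′ end, 178841 bases from the 5′ end of HK1 in NC and 175378 in KMT2D-KD, in no protein-coding gene. In KMT2D-KD it ran over 5783 bases (chr10:69445362-69451144) and reached 9.05-fold enrichment (−log10 q 17.9). In NC the same stretch held 3 intervals, the strongest of them (chr10:69448825-69449952) with 8.30-fold (−log10 q 14.1). This stretch lies close to the far end of the window (chr10:69451884), into which TSPAN15 also reaches. Which gene of the window the stretch goes with was not tested. The log2 ratio of covered bases was 1.04 at HK1, 0.96 after merging and 0.45 without the wide KMT2D-KD interval, with the NC pieces kept. The strongest unshared KMT2D-KD interval of all 10 windows (chr10:69231909-69232883, fold enrichment 6.42, −log10 q 11.2) lay in HKDC1, a hexokinase-like neighbour, 37101 bases upstream of HK1. The strongest unshared NC interval lay in HK1 itself (chr10:69323757-69324327), at 4.13-fold (−log10 q 5.59).

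HK2 is the inducible hexokinase that many tumours express, and lies at chr2:74834127-74893359 (plus strand) with no other protein-coding gene in its window. It held 14 NC and 17 KMT2D-KD intervals over 6314 and 9906 bases (1.57-fold). Unshared intervals numbered 3 and 7. The strongest NC interval (chr2:74842558-74842956) reached 6.67-fold (−log10 q 8.75). In KMT2D-KD the strongest lay over a coding exon (chr2:74867577-74867957), with 8.15-fold (−log10 q 13.6). The strongest unshared interval of KMT2D-KD covered 1161 bases of the gene body (chr2:74855250-74856410) at 5.84-fold (−log10 q 7.14), against 4.32-fold (4.29) for that of NC (chr2:74865780-74866213). The log2 ratio of covered bases at HK2 exceeded that of 39.3% of all genes.

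**Figure D4:**
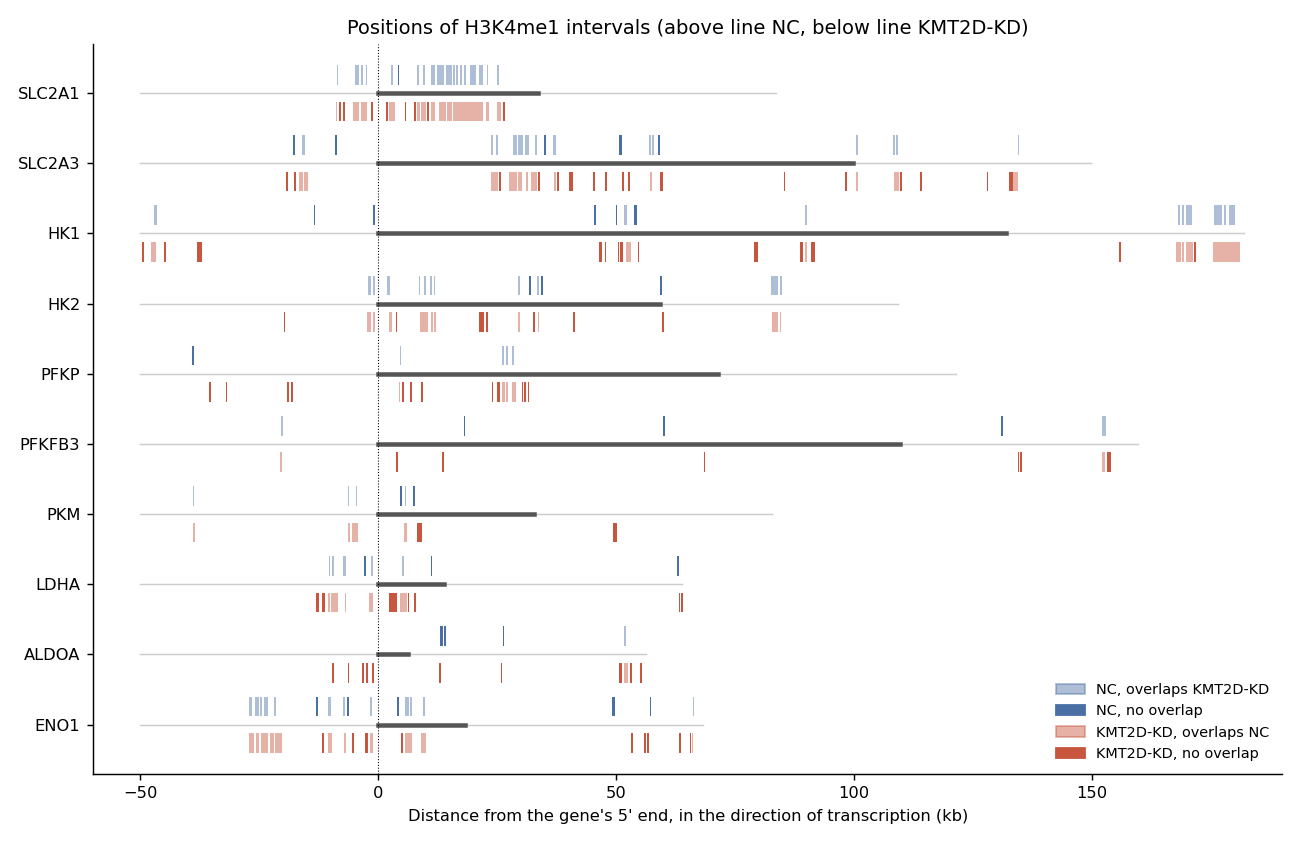
Position of every H3K4me1 interval against the distance from the 5′ end of each gene, in the direction of transcription; the grey line is the window and the dark bar the gene body, with NC above and KMT2D-KD below, pale where the interval overlaps the other list. Intervals narrower than 0.35 kb are drawn at that width so that they can be seen. Unshared KMT2D-KD intervals number 2 at PKM and 18 at SLC2A3, and the ALDOA gene body holds no interval in either list.

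PFKP is the platelet-type phosphofructokinase, which many cancers express, and lies at chr10:3066333-3137718 (plus strand). It showed the largest difference in number, with 5 NC and 16 KMT2D-KD intervals (log2 ratio 1.68, 0.16 to 3.48). PFKP was the only gene of the 10 at which the counting interval of the number lay wholly above 0, that is 1 of 10, beside 6.71% of all genes. Covered bases were 1772 and 5659 (3.19-fold). Of the 16 KMT2D-KD intervals, 12 were unshared, 4 of the 16 lay upstream and 12 in the gene body. The 16 were 180 to 856 bases wide, and 12 of them had 8 to 12 fragments at the summit. The strongest unshared KMT2D-KD interval (chr10:3090114-3090517) reached 6.45-fold (−log10 q 8.32), and the single unshared NC interval (chr10:3027164-3027521) 3.17-fold (2.02). The strongest place was the same in both lists, in an intron, at 5.97-fold (−log10 q 7.11) in NC (chr10:3094409-3094814) and 7.59-fold (11.1) in KMT2D-KD (chr10:3094411-3095266).

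PFKFB3 makes fructose 2,6-bisphosphate, the allosteric activator of phosphofructokinase, and lies at chr10:6144934-6254644 (plus strand). It was the most sparsely marked window, with 5 NC and 8 KMT2D-KD intervals over 2078 and 3243 bases (1.56-fold). The lists shared only 2 places here, and 3 NC and 6 KMT2D-KD intervals were unshared. The strongest NC interval was itself unshared (chr10:6204827-6205142, fold enrichment 5.62, −log10 q 6.33, 15 fragments) and lay 1895 bases downstream of the start of the MANE Select transcript, the representative transcript of the annotation. The nearest KMT2D-KD interval lay 10361 bases from that start. The strongest KMT2D-KD interval (chr10:6298006-6298852, 5.84-fold, −log10 q 7.14) was also unshared and lay downstream of the gene.

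ALDOA, the main aldolase of muscle and many tumours, lies at chr16:30064164-30070457 (plus strand). Its window held 4 NC and 11 KMT2D-KD intervals (log2 ratio 1.46, −0.30 to 3.57), with 1459 and 3429 covered bases (2.35-fold). No interval lay in the ALDOA gene body in either list. Upstream of the gene there were 0 intervals in NC and 5 in KMT2D-KD, all narrow (179 to 339 bases) with 7 to 12 fragments at the summit. The window holds 9 other protein-coding genes, and the strongest interval of KMT2D-KD (chr16:30115697-30116544, fold enrichment 5.62, −log10 q 8.07) lay in MAPK3.

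ENO1 is the ubiquitous enolase and lies at chr1:8861000-8879190 (minus strand). Its window was as dense as that of SLC2A1, with 14.4 intervals per 100 kb in NC, above 98.1% of all genes. It held 17 NC and 20 KMT2D-KD intervals over 8349 and 12954 bases (1.55-fold, the smallest difference of the 10). Unshared intervals numbered 5 and 9. The strongest interval of each list was upstream, 24420 (NC) and 23291 bases (KMT2D-KD) before the gene. It reached 6.32-fold (−log10 q 7.92) in NC (chr1:8903610-8903998) and 7.97-fold (12.1) in KMT2D-KD (chr1:8902481-8903920). These intervals overlapped, but the KMT2D-KD summit lay in another NC interval (chr1:8902402-8903214) with 4.21-fold (3.49). The strongest unshared intervals were weaker, at 4.56-fold in NC (chr1:8874933-8875211) and 4.77-fold in KMT2D-KD (chr1:8884460-8884709).

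PKM is the pyruvate kinase gene whose M2 splice form prevails in tumours, and lies at chr15:72199029-72231819 (minus strand). The number was 6 in both lists, yet they covered 1886 (NC) and 4390 bases (KMT2D-KD), 2.33-fold, so the difference was in width. Mean widths were 314 (NC) and 732 bases (KMT2D-KD). The mean covered bases per interval were at least 2-fold higher in KMT2D-KD at 2 of 10 genes, PKM and LDHA, beside 3.43% of all genes. The strongest NC interval (chr15:72226997-72227286, fold enrichment 4.91, −log10 q 4.86) and the strongest KMT2D-KD interval (chr15:72222736-72223765, 6.45-fold, −log10 q 8.32) were both unshared and both in the gene body.

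LDHA, the lactate dehydrogenase subunit that favours conversion of pyruvate to lactate, lies at chr11:18394560-18408425 (plus strand). It showed the largest difference in covered bases, 2505 in NC and 8638 in KMT2D-KD (3.45-fold), above 87.0% of all genes. The number was 8 and 12. The NC intervals were 187 to 696 bases wide, whereas the widest of KMT2D-KD were 1520, 1596 and 1599 bases. Within the gene, a KMT2D-KD interval of 1599 bases (chr11:18396856-18398454) reached 7.59-fold (−log10 q 11.1) where NC had none. The next one (chr11:18399035-18400554) covered 1520 bases, with a fold enrichment of 6.83, and overlapped an NC interval of 187 bases with 3.86. Upstream, an interval found in KMT2D-KD alone (chr11:18382750-18383355) had a fold enrichment of 7.58 and the same −log10 q of 11.1.

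The opposite case at LDHA was a single NC interval of 228 bases over coding sequence (chr11:18405539-18405766). It reached 5.97-fold (−log10 q 7.11, 16 fragments), and KMT2D-KD had no interval there. It was the strongest unshared NC interval of the 10 windows, and no sequence is printed because its summit window overlaps an untranslated region. The LDHA window also holds LDHC and LDHAL6A, related dehydrogenases, and GTF2H1. With equal numbers of the strongest intervals, the log2 ratio of covered bases at LDHA was 1.63 instead of 1.79.

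**Figure D5:**
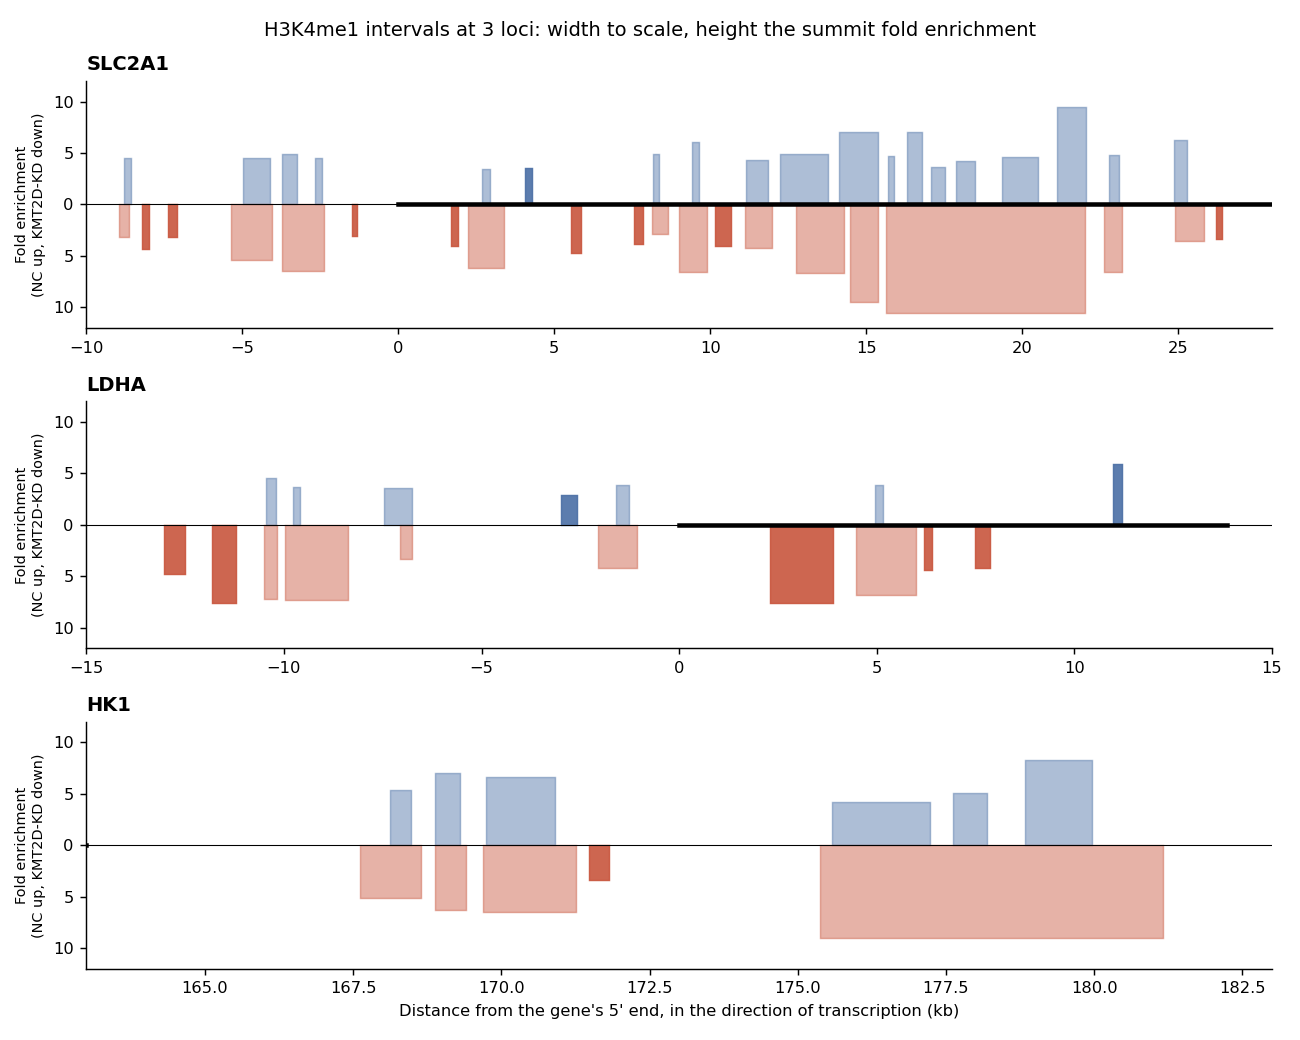
H3K4me1 intervals at SLC2A1, LDHA and the stretch downstream of HK1, with widths to scale against the distance from the 5′ end in kb and height as the fold enrichment at the summit; NC points up, KMT2D-KD down, darker where unshared, and the thick line is the gene body. The 6400-base KMT2D-KD interval of SLC2A1 faces 6 NC intervals, the 5783-base interval in the HK1 window faces 3, and the 1599-base interval of LDHA faces none.

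Few of the genes had H3K4me1 right at the 5′ end of the gene record. Within 1000 bases of the 5′ end of the gene record, HK1 and HK2 had an NC interval and HK2 had a KMT2D-KD interval, that is 2 and 1 of 10, beside 6.43% and 11.9% of all protein-coding genes. The HK2 intervals lay 767 bases upstream in NC (chr2:74832899-74833360, fold enrichment 4.32) and 640 bases upstream in KMT2D-KD (chr2:74832986-74833487, 3.62). The HK1 interval of NC (chr10:69268880-69269125) was weak, with a fold enrichment of 2.69. Within 5000 bases, 7 genes had an NC interval and 8 a KMT2D-KD interval, beside 30.2% and 42.9%. These shares are of all 20033 protein-coding genes, including those with few intervals. The windows of the 10 genes were denser, with medians of 6.53 (NC) and 10.4 (KMT2D-KD) intervals per 100 kb, beside 1.83 and 3.31. The part of this density in the counts was not tested. The marked flanks were close at LDHA, where the nearest interval lay 1258 bases away in NC and 1066 in KMT2D-KD, at ENO1 (1461 and 1087) and at SLC2A1 (2438 and 1318). ALDOA differed, with its nearest interval 13002 bases away in NC and 1062 in KMT2D-KD.

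For the other members the nearest interval lay farther off. At PFKP it was 4475 (NC) and 4266 bases (KMT2D-KD) away, and at PKM 4533 and 4280. At PFKFB3 it was 17929 and 3788 bases away, and at SLC2A3 8932 and 14859. The gene record of SLC2A3, HK1 and PFKFB3 begins 82820, 48863 and 57998 bases away from the start of the MANE Select transcript, so the choice of start matters for these 3 genes. From that start, the nearest interval lay 17628 bases away in NC and 2353 in KMT2D-KD at SLC2A3, and 980 and 1065 at HK1.

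The 10 windows held no KMT2D or EBF2 interval, like most gene windows. The 4 lists are short, with 238 (NC) and 318 intervals (KMT2D-KD) for KMT2D and 293 and 311 for EBF2. The KMT2D list was thus not shorter in KMT2D-KD, and depth was not recovered for these lists. Only 2.65% of all protein-coding genes had an interval of any of the 4 lists in their window. Among the 10 genes the count was 0, and also 0 with 100 kb on either side, where 4.26% of all genes had one. The nearest lay 0.223 Mb from the HK2 window, in NC EBF2, and the median distance over genes and lists was 3.01 Mb. A difference in KMT2D or EBF2 near these genes was thus not detectable from these lists.

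Motifs of known activators were searched on both strands within 100 bases of each summit. ACGTG occurred in 7 of 111 NC intervals (6.31%, 2.57% to 12.6%), beside 8.16% of the complete NC list. In KMT2D-KD it occurred in 22 of 160 (13.8%, 8.82% to 20.1%), beside 8.86%, which that interval just includes. Of these 22, 11 were in shared and 11 in unshared intervals, and SLC2A3 and ENO1 held 4 each. CACGTG, the E box bound by MYC, which contains ACGTG, occurred in 1 NC and 5 KMT2D-KD intervals (0.901% and 3.13%, beside 2.10% and 2.41%). TGAGTCA or its reverse complement TGACTCA, the AP-1 site, occurred in 5 and 6 (4.50% and 3.75%, beside 4.83% and 4.80%). A match is a description of the letters and not a bound site. A pair of E boxes with 15 bases on either side is given on the plus strand, with CACGTG in capitals. The SLC2A3 example lies in letters typical of Alu repeats.
HK2 KMT2D-KD unshared, chr2:74856800-74856835: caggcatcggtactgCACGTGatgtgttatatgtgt
SLC2A3 KMT2D-KD shared, chr12:7987767-7987802: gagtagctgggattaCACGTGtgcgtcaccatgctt

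The other genes of the pathway were taken from a list of 30 transporters, glycolytic enzymes and lactate genes, of which 25 had at least 5 intervals in both lists together. Covered bases were at least 2-fold higher in KMT2D-KD at 13 of these 25, beside 41.1% of all genes, and at least 2-fold lower at none, beside 0.959%. The 13 included the aldolase ALDOC (5.21-fold), triosephosphate isomerase TPI1 (4.47-fold) and the neighbouring enolase ENO2 (4.16-fold), whose windows overlap. They also included PGAM2 (3.63-fold), LDHC (3.48-fold, largely the LDHA window), PKLR (3.03-fold), SLC2A4 and SLC2A6 (both 2.78-fold), SLC2A14 (2.52-fold, sharing the SLC2A3 window), ENO3 (2.41-fold), SLC2A12 (2.21-fold), the lactate exporter SLC16A3 (2.18-fold) and PFKFB4 (2.04-fold). Covered bases were lower in KMT2D-KD at 4 of the 25, with fold values of 0.640 at LDHB, 0.797 at PGAM1, 0.888 at GAPDH and 0.900 at SLC16A1. LDHB, the heart-type dehydrogenase subunit, thus differed in the other direction from LDHA, at 5405 (NC) and 3461 bases (KMT2D-KD).

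Marker genes of cell types were counted in the same windows. All 6 ductal epithelial marker genes had intervals in both lists. The numbers in NC and KMT2D-KD were 1 and 8 at EPCAM, 4 and 7 at KRT19, and 10 and 17 at MUC1. They were 32 and 34 at KRT18, 42 and 46 at KRT8, and 47 and 51 at KRT7. Most genes have an interval, since the lower quartile over all genes was 0.33 (NC) and 0.95 (KMT2D-KD) per 100 kb. The presence of an interval therefore does not tell cell types apart. Among marker genes of other cells, the endothelial PECAM1 had 8 NC and 14 KMT2D-KD intervals, the leukocyte gene PTPRC 5 and 7, and the T cell gene CD3E 2 and 4. The beta cell gene INS had 0 and 1, and the hepatocyte gene ALB had 0 in both. H3K4me1 near a gene is not its expression, and the part of these genes in the result was not tested.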

How the data were processed

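H3K4me1, KMT2D and EBF2 were profiled by ChIP-seq in SW1990 cells. According to the methods and the submitters' processing notes, the authors cleaned reads with in-house perl scripts, aligned them with BWA and used MACS2 and HOMER on hg38, without stated versions or settings. How duplicate and multiply mapped reads were treated is not given in the sources used here. Each deposited list holds the peaks of 1 library in 10 columns, among them the ratio of signal to background at each summit (fold enrichment). −log10 p-values and −log10 q-values are also deposited for each interval and were used to rank or filter within a list and to recover depth. The input had no list.

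Groups were taken from the sample titles. Intervals were counted where they overlapped the GENCODE release 44 gene body with 50 kb on either side, and intervals of both lists were shared at an overlap of 1 base. The members and gene lists were chosen with earlier results of these data known. Named intervals are the strongest, the strongest unshared and the nearest to the 5′ end per gene and list, and the widest overall. LDHA intervals beyond these and the printed LDHA sequences were chosen after their values were seen. The background is all 12726 protein-coding genes with at least 5 intervals in both lists together, and medians use the genes with a value in each list. Genes not tested for this reason were HK3, PFKFB1, PFKL, SLC2A10 and SLC2A2.

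Fragments at summits were solved from the fold enrichment and p-value, taken as (fragments + 1) / (background + 1) and a Poisson probability, and were whole to within 0.001 in −log10 p for at least 99.97% of intervals. The lowest background was 1.85 in NC and 1.64 in KMT2D-KD. At that background 16 fragments gave 5.97-fold in NC and 6.45-fold in KMT2D-KD, so fold values of the 2 lists are not on exactly the same scale. Exact binomial (Clopper-Pearson) 95% intervals cover counting error only. No test was made, because intervals of 1 library are not replicates. Counting was tested on simulated intervals. Alternatives concerned thresholds, list length, windows, overlap and merging. Added after the data were seen were the MANE Select start, leaving out intervals of at least 2000 bases, KMT2D and EBF2 windows of 100 kb, and GC quintiles. Sequences are from the hg38 reference. Part of the marker list and some motif sequences are not reported here. Analyses used Python 3.11.15, numpy 2.4.6, pandas 2.3.3, scipy 1.17.1, samtools 1.23.1 and matplotlib 3.10.9.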

Additional observations from a re-analysis of the deposited data

How the results depend on the processing

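No paired analysis was possible because each target and condition had 1 library. Among the alternatives for the values that answer a comparison, 65 left the value within its interval (counts: within 1.5 times) and 40 moved it further. For covered bases that interval was borrowed from the number and leaves out the spread of widths. A turn of direction was recorded only for the log2 ratios of number and of covered bases, where there were 0. For other values the order of the lists did turn. Median widths were 372 (NC) and 407 bases (KMT2D-KD), but 1036 and 975 for a −log10 q from 10. Genes with an interval within 1000 bases of the 5′ end were 2 and 1, but 7 and 8 for any annotated transcript start.

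The log2 ratio of the number of intervals was 0.95 for a −log10 q from 5 and 2.09 from 10 (counting interval 0.47 to 4.12). It was 1.09 for a fold enrichment from 5 and 0.026 when both lists were cut to the same number of top intervals. Over the complete lists it was 0.86, 2.02, 0.97 and 0 by construction. That of covered bases was 1.74, 2.87 and 2.05 under the first 3 settings, beside 1.005, 2.13 and 1.13 over the complete lists. Leaving out each gene in turn gave 0.92 to 1.03 for covered bases and 0.44 to 0.61 for the number. Without intervals of at least 2000 bases it was 0.79 for covered bases, beside 0.55 over the complete lists. In that setting 5 genes passed 2-fold instead of 6, beside 39.5% of all genes. The number of genes past 2-fold was 1 for a −log10 q from 10, where only 1 gene had enough intervals, and 3 both with equal numbers and after merging intervals within 1000 bases. The share of all genes past 2-fold was then 80.9%, 24.7% and 43.0%. The cause was not tested.

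The unshared share of NC was 0% for a −log10 q from 10 and 8.11% when an interval within 1000 bases counted as shared. The 0% rests on few intervals (exact binomial interval 0% to 60.2%). That of KMT2D-KD was 68.5% for a −log10 q from 5, 76.5% from 10, 66.7% for a fold enrichment from 5, 77.5% when an overlap of 50% was required and 33.1% within 1000 bases. A looser overlap lowers these shares by construction. Median widths in NC were 481, 1036 and 450.5 bases under these 3 thresholds. In KMT2D-KD they were 875, 975 and 894, with 548 for equal numbers and 772.5 after merging. Intervals within 1000 bases of a 5′ end were found at 0 genes in both lists under each of the 3 stricter thresholds, and at 7 (NC) and 8 (KMT2D-KD) genes for any annotated transcript start as well as within 5000 bases. The share of all genes was not computed for any annotated start, so the counts for that setting have no background. The number of annotated starts ran from 3 at HK2 to 25 at HK1. Of the other pathway genes, none had enough intervals for a −log10 q from 10, so 0 passed 2-fold. There were 7 of 10 for a fold enrichment from 5 (61.0% of all genes tested), 8 of 25 with equal numbers (24.7%), 2 of 10 in the gene body alone (33.0%) and 6 of 16 with 10 kb on either side (36.9%).

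For single members, 55 of 77 alternatives stayed close, 16 moved higher and 6 lower, and the log2 ratio of covered bases was above 0 in all 77 (0.22 to 4.63). SLC16A3 reversed to −0.077 for a −log10 q from 10. With 12 fragments at the median summit, intervals near the threshold can appear or disappear by counting error alone, and 4 to 30 intervals per gene leave wide counting intervals.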
